A study of Xenopus tropicalis with 8 samples.

Results

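The steroid hormone receptor genes read in these testes were ar, pgr, nr3c2 and pgrmc2, 4 of the 4639 genes that could be named on a probe. A gene was taken where the accession of a probe, without its version, was a transcript of that symbol in the RefSeq gene table of Xenopus tropicalis. Each gene had 1 probe. The 4 probes were well above background on all 8 arrays, as were 22413 of all 32899 probes. All 4 entered the test. RNA came from testis tissue of juvenile male Xenopus tropicalis, a frog also called Silurana tropicalis. The tissue was held for 6 h at 26 °C in L-15 culture medium, with 5 µM finasteride on 4 arrays and with 0 µM (control) on 4 arrays. The design text gives 8 samples per arm, of which 4 per arm were analysed here. Whether an array holds 1 animal or a pool is not in the labels, so the p-values reflect the spread between arrays, and that spread may be technical.

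Steroid hormone receptors are transcription factors that are held inactive by chaperones until a steroid binds, then move to DNA and recruit coregulators. The androgen receptor, encoded by ar, binds testosterone and its more potent product dihydrotestosterone. Finasteride inhibits steroid 5-alpha-reductase, the enzyme of that conversion. In the mammalian testis the androgen receptor acts in Sertoli, Leydig and peritubular cells and is needed for sperm formation. The progesterone receptor, encoded by pgr, is known in Xenopus for its part in oocyte maturation. The mineralocorticoid receptor, encoded by nr3c2, binds aldosterone and glucocorticoids and is best known for control of salt transport. The product of pgrmc2 is a membrane protein that binds heme and belongs to another family, so it is a receptor by its name rather than a nuclear receptor.

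The arrays were single-colour Agilent arrays of 32899 probes. Processed intensity had a 75th percentile of 896 to 1798 on finasteride arrays and 719 to 1686 on control arrays, and probes well above background made up 70.5% to 86.9% and 73.3% to 77.2% of all probes. A level below is the log2 intensity minus that array's 75th percentile, so 0 is a signal at that percentile. Of 49 germ cell markers listed 7 were named on a probe, and the 6 that passed the filter on dim probes, which asks for signal, were well above background on all 8 arrays. The 2 brightest of each marker list are named here. The meiotic gene hormad1 had a mean level above 97.3% of all probes and the sperm gene spata4 above 92.2%. The dimmest germ cell marker tested, dnd1, read from a probe named xhyb, stood above 50.9%. Signal well above background on all 8 arrays also held for 5 of 6 Sertoli cell markers on a probe (25 listed, ar left out). Of these kitlg stood above 95.8% and inhba above 89.9% of probes, both read from probes named xhyb, and the dimmest, krt18.2, above 33.0%. It also held for 5 of 5 Leydig cell markers on a probe (15 listed), with scarb1 above 77.1% and fdx1 above 73.0% of probes and the dimmest, igf1, above 30.7%. No peritubular or smooth muscle marker of the 8 listed was named on a probe. Among markers of other tissues tie1 (endothelium) stood above 85.1%, scnn1a (kidney, read from a probe named xhyb) above 90.7%, lrp2 (kidney) above 85.6%, sox17b.2 (endothelium) above 57.4%, mpo (leukocytes) above 65.9%, slc4a1 (erythrocytes) above 40.0%, and alb and fgg (liver, both from probes named xhyb) above 73.8% and 72.4%. Of markers on a probe, 4 of 5 for endothelium and 5 of 9 for kidney and adrenal were well above background on all 8 arrays. The same held for 2 of 7 for blood and leukocytes and 4 of 6 for fat body and liver. The dimmest tested in these lists were flt1 (36.3%), slc22a2 (27.4%), cd74 (23.7%) and lpl (51.5%). Of all 3845 named genes tested, 3366 were well above background on all 8 arrays, so such counts alone do not single out a cell type. Fewer cells of a type and less RNA per cell cannot be told apart in such tissue.

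No receptor gene passed the test in either direction. Two-sided limma tests with Benjamini-Hochberg adjustment over 25652 probes called 0 of the 4 genes at an adjusted p under 0.05, where 0% of all probes tested were called. At an unadjusted limma p under 0.05 there were also 0 of 4, where 4.00% of all probes tested had such a p. Values were higher with finasteride for ar and nr3c2 and lower for pgr and pgrmc2. Their median log2 fold change was 0.04, against 0.01 over all probes tested. The finasteride and control values overlapped for ar, pgr and pgrmc2 and did not overlap for nr3c2. Such a separation was seen for 2.08% of all probes tested and for 1.98% of named genes.

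**Figure D1:**
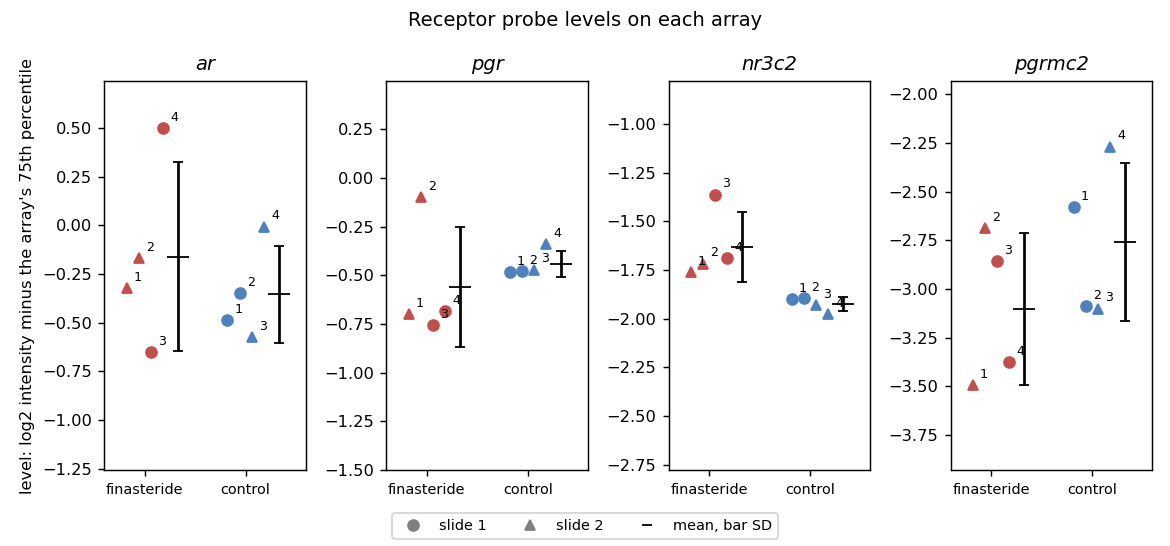
Level of each receptor probe (log2 processed intensity minus the array's 75th percentile) on the 4 finasteride and 4 control arrays. Numbers are replicate numbers, circles are slide 1, triangles are slide 2, and the black bar is the mean with SD (n = 4); every panel spans the same height in log2 units, and only nr3c2 has all finasteride arrays above all control arrays.

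The mineralocorticoid receptor gene nr3c2 was the receptor whose groups lay apart. Its level was -1.76, -1.72, -1.36 and -1.69 on finasteride arrays 1 to 4, against -1.90, -1.89, -1.93 and -1.98 on control arrays 1 to 4. The lowest finasteride value lay above the highest control value, and finasteride 3 was the highest of all. The mean was -1.63 ± 0.18 with finasteride and -1.92 ± 0.04 in controls (SD, n = 4 each). The fitted difference on the log2 scale was 0.29 (95% interval -0.04 to 0.63, limma adjusted p = 1.00), which is 1.23-fold with an interval of 0.970-fold to 1.55-fold. A two-sided exact permutation test gave p = 0.0286, the smallest that 4 against 4 arrays allow, with 4 of 4 finasteride values above every control value. Complete separation of 4 from 4 arrays always gives this p. It therefore restates the separation, which 2.08% of all probes tested showed, and is not a further test. The unadjusted limma p was 0.0814, and 6.43% of all probes tested had a lower one. The control spread was low among probes of like brightness: of the 1000 tested probes nearest in mean level, 0.9% had a lower SD over control arrays and 14.2% a lower SD over finasteride arrays. limma draws each probe's spread towards that of all probes, and the permutation test uses this probe alone.

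The separation of nr3c2 was also present in its single spots and in its rank. The level is the mean of these spots. All readings below come from the same 8 arrays and add no independent evidence. The nr3c2 probe is printed at 2 spots. Spot 1 read -1.81 to -1.45 with finasteride and -2.00 to -1.95 in controls. Spot 2 read -1.70 to -1.27 with finasteride and -1.96 to -1.79 in controls. The spots differed from each other by 0.13 on average, with spot 2 the brighter on 8 of 8 arrays, and by 0.28 and 0.31 between groups. Of all probes, 58.0% to 60.5% were dimmer than nr3c2 on finasteride arrays and 54.9% to 56.2% on control arrays. In the authors' deposited table of log2 values, nr3c2 ran from 8.53 to 8.80 with finasteride and from 8.17 to 8.32 in controls. Within slide 1 the log2 fold change was 0.37 (limma adjusted p = 1.00) and within slide 2 it was 0.21 (adjusted p = 1.00). Positions 2 and 4 of a slide held only finasteride arrays and positions 1 and 3 only control arrays, and these factors cannot be told apart.

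**Figure D2:**
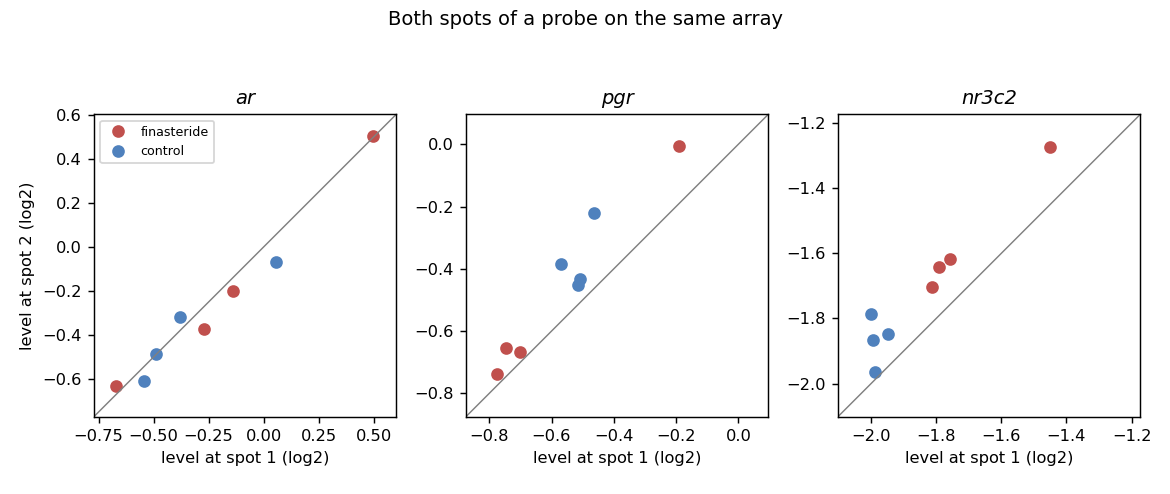
Level at spot 2 against level at spot 1 of the same probe on the same array (both log2, relative to the array's 75th percentile), for the 3 receptor probes printed at 2 spots, with the line of equality. Finasteride arrays are red and control arrays blue; for nr3c2 the red points lie above and to the right of all blue points, and for pgr and nr3c2 spot 2 is the brighter on 8 of 8 arrays.

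The androgen receptor gene ar had the widest spread between finasteride arrays of the 4 genes. Its level was -0.32, -0.17, -0.65 and 0.50 on finasteride arrays 1 to 4, against -0.49, -0.35, -0.58 and -0.01 on control arrays 1 to 4. The highest value of all was finasteride 4 and the lowest was finasteride 3, with all controls between them. The mean was -0.16 ± 0.48 with finasteride and -0.36 ± 0.25 in controls (SD, n = 4 each). Among the 1000 tested probes nearest in mean level, 83.5% had a lower SD than ar over finasteride arrays and 73% over control arrays. The log2 fold change was 0.19 (95% interval -0.37 to 0.76, limma adjusted p = 1.00), or 1.14-fold with an interval of 0.775-fold to 1.69-fold. The exact permutation test gave p = 0.543 (two-sided, n = 4 each), and 10 of the 16 pairings of a finasteride with a control array had the higher ar value on the finasteride array. Without finasteride 4 the log2 fold change was -0.03, and within slides it was 0.34 on slide 1 and 0.05 on slide 2. Both spots of ar differed by 0.06 on average and by at most 0.12 on any array. Of all probes, 67.9% to 79.7% were dimmer than ar on finasteride arrays and 69.2% to 74.9% on control arrays.

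The progesterone receptor gene pgr had group means that lay close together. Its level was -0.70, -0.10, -0.76 and -0.68 on finasteride arrays 1 to 4, against -0.48, -0.48, -0.47 and -0.34 on control arrays 1 to 4. Finasteride 2 was the highest of the 8 arrays, and the other 3 finasteride arrays lay below all controls. The mean was -0.56 ± 0.31 with finasteride and -0.44 ± 0.07 in controls (SD, n = 4 each). The log2 fold change was -0.12 (95% interval -0.52 to 0.29, limma adjusted p = 1.00), or 0.922-fold with an interval of 0.696-fold to 1.22-fold. The exact permutation test gave p = 0.571 (two-sided, n = 4 each). Without finasteride 2 the log2 fold change was -0.27 (95% interval -0.63 to 0.09, limma adjusted p = 1.00). Within slide 1 it was -0.24 and within slide 2 it was 0.01. Of the 1000 tested probes nearest in mean level, 44.1% had a lower SD than pgr over finasteride arrays and 6.0% over control arrays. With limma array weights pgr stood at 0.067. With the normexp background, which collapsed the range of some arrays, pgr stood at 0.037. Both spots of pgr placed finasteride 2 highest, at -0.19 and -0.004.

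The membrane receptor component gene pgrmc2 was the dimmest of the 4. Its level was -3.49, -2.69, -2.86 and -3.38 on finasteride arrays 1 to 4, against -2.58, -3.09, -3.10 and -2.27 on control arrays 1 to 4. Finasteride 1 and 4 were the lowest and controls 1 and 4 the highest. Between them, finasteride 2 and 3 lay above controls 2 and 3. The mean was -3.10 ± 0.39 with finasteride and -2.76 ± 0.41 in controls (SD, n = 4 each). The log2 fold change was -0.35 (95% interval -0.92 to 0.23, limma adjusted p = 1.00), or 0.787-fold with an interval of 0.528-fold to 1.17-fold. The exact permutation test gave p = 0.286 (two-sided, n = 4 each). Leaving out 1 array moved it between -0.48 (without finasteride 2) and -0.18 (without control 4), and with the normexp background correction it was 0.49. The median signal of its single spot was 3.79 to 8.38 times the local background with finasteride and 4.65 to 7.66 times in controls. Its probe is named xhyb by the array design and the other 3 receptor probes are named specific; what else the xhyb probe may read was not tested.

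The nr3c2 and pgrmc2 probes were dimmer than the ar and pgr probes on 8 of 8 arrays, and ar and pgr changed places. Of all probes, on average 73.2%, 69.3%, 58.9% and 45.7% were dimmer than ar, pgr, nr3c2 and pgrmc2 on finasteride arrays, and 71.3%, 70.5%, 55.8% and 48.7% on control arrays. The ar probe was brighter than the pgr probe on 3 of 4 finasteride arrays and 2 of 4 control arrays, so their order varied between arrays. The pgr probe was brighter than nr3c2, and nr3c2 brighter than pgrmc2, on 8 of 8 arrays. A probe's brightness also depends on its sequence, so this order describes signal and not the amounts of the transcripts.

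The spread between arrays differed among the receptors and between the groups. The SD over finasteride arrays was the larger for 3 of the 4 genes (ar, pgr and nr3c2), and for pgrmc2 the SDs were 0.39 with finasteride and 0.41 in controls. Over all probes tested, 71.2% had the larger SD with finasteride, with a median of 0.35 against 0.23 in controls. The array with the highest level was finasteride 4 for ar, finasteride 2 for pgr, finasteride 3 for nr3c2 and control 4 for pgrmc2. Likeness was measured as the root mean square difference between 2 genes over the 8 arrays, after each gene's mean was removed. Among the receptors it was smallest for pgr and pgrmc2 (0.31 log2 units) and largest for ar and pgrmc2 (0.56). The median over other named genes was 0.35 from pgr and 0.46 from ar and from pgrmc2. The pgr levels lay 0.20 from their own mean and the pgrmc2 levels 0.39 from theirs. This measure depends on the spread of both genes, so 0.31 alone cannot decide whether they share a pattern.

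Among 3839 other named genes tested, those with a pattern most like ar were bnc2, trmt11 and axin2, at a root mean square difference of 0.12, 0.14 and 0.14 log2 units, where the median gene stood at 0.46. For pgr they were col8a1 (0.07), acp7 (0.10) and mindy2 (0.11), with a median of 0.35. For nr3c2 they were ptk6 (0.07), gtpbp3 (0.08) and rhbdd3 (0.09), with a median of 0.33. For pgrmc2 they were tmem200c (0.17), adamts8 (0.20) and onecut2 (0.20), with a median of 0.46. These are the nearest of many genes compared over 8 arrays, and the likeness is given as a description.

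**Figure D3:**
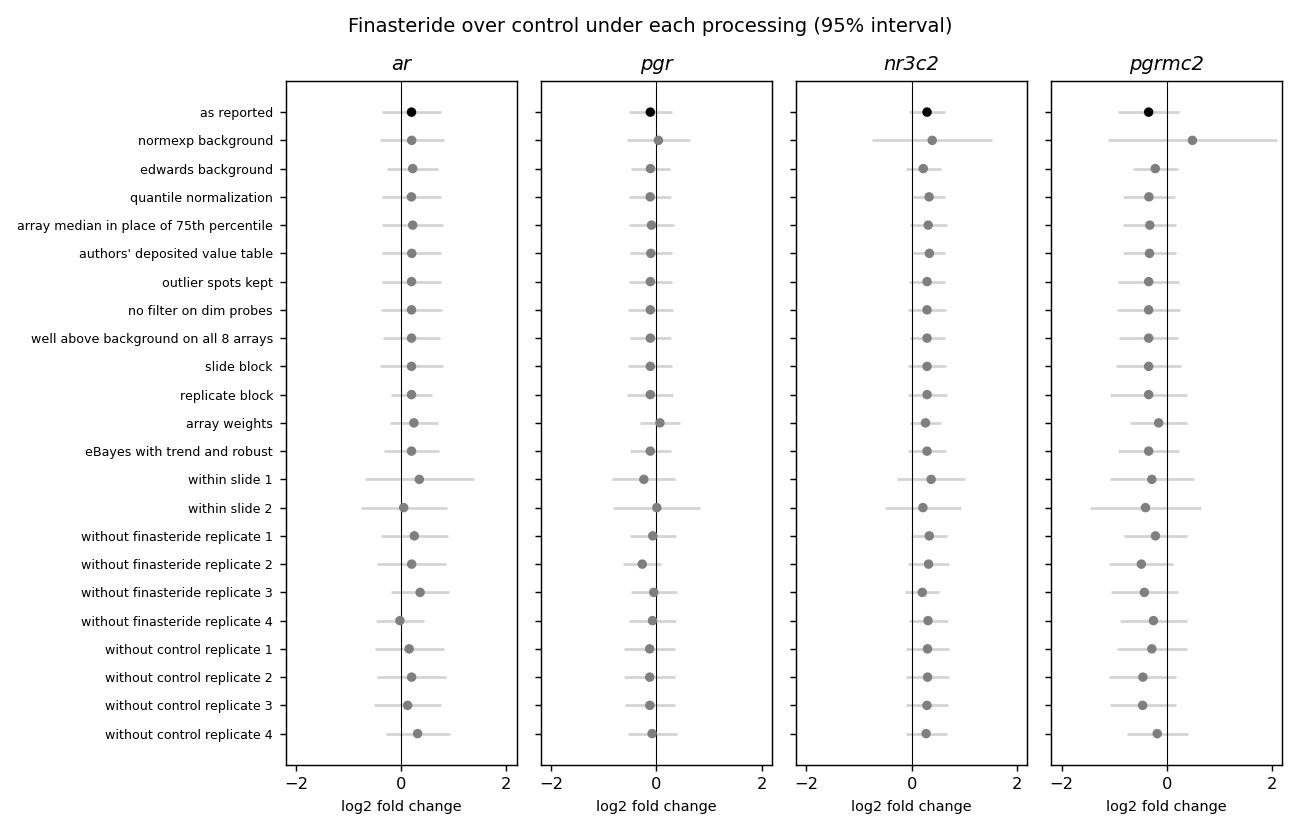
Log2 fold change of finasteride over control for each receptor probe as reported (black) and under 22 other ways of processing or leaving out an array (grey), with 95% limma intervals as horizontal lines. The nr3c2 points lie between 0.20 and 0.39, while those of ar, pgr and pgrmc2 fall on both sides of 0, for ar only without finasteride 4 (-0.03) and for pgrmc2 only with the normexp background (0.49). The normexp background collapsed the range of some arrays.

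Other genes of receptor signalling were read from lists of partners and targets. Estrogen and glucocorticoid receptor genes were not named on a probe and were not analysed here. Of 17 other steroid receptor genes listed, only vdr, the vitamin D receptor, could be tested, and it stood at -0.06 on the log2 scale (95% interval -0.44 to 0.32, limma adjusted p = 1.00). Of 22 receptor chaperone genes 4 were tested and none passed. All 4 had lower values, with a median of -0.13, against 0.01 over all named genes tested, of which 1971 had higher and 1874 lower values. These were bag1, a cochaperone, at -0.18 (-0.55 to 0.20), the constitutive heat shock protein gene hspa8 at -0.14 (-0.55 to 0.28), the endoplasmic reticulum chaperone gene hsp90b1 at -0.12 (-0.65 to 0.42) and ahsa1, an activator of the ATPase of HSP90, at -0.06 (-0.41 to 0.28). Without finasteride 4 hspa8 stood at 0.01, and without finasteride 1 hsp90b1 stood at 0.02.

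Of 45 coregulator genes 9 were tested and none passed, with 4 higher, 5 lower and a median log2 fold change of -0.03. The Mediator subunit gene med14 stood at 0.43 (-0.05 to 0.90), and its probe was well above background on 3 finasteride and 2 control arrays, so that it was tested only through its finasteride arrays. The coactivator gene ncoa6 stood at 0.31 (-0.36 to 0.97). With the edwards background correction, an alternative chosen after seeing the data, med14 stood at 0.016 (-0.40 to 0.43) and ncoa6 at 0.026. That correction was run with an offset of 50 added to each intensity, which draws differences of dim probes towards 0. The acetyltransferase gene kat2b stood at -0.15 (-0.62 to 0.33) and the SUMO ligase gene pias1 at -0.08 (-0.55 to 0.38). Without finasteride 3 ncoa6 stood at 0.10, and without control 4 pias1 stood at 0.08.

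Other nuclear receptor genes were tested for 16 of 45, and none passed, with 8 higher, 8 lower and a median of -0.02. The nr0b1 gene, whose product DAX1 represses steroid synthesis genes, was at 0.51 ± 0.28 with finasteride and 0.82 ± 0.20 in controls (SD, n = 4 each), a log2 fold change of -0.31 (-0.73 to 0.11). The lipid sensor gene ppard stood at -0.31 (-0.74 to 0.12), read from a probe named xhyb, and the thyroid hormone receptor gene thra at -0.22 (-0.61 to 0.18). The related gene ppara was well above background on 3 finasteride and 0 control arrays, and its measured level was -6.07 with finasteride and -5.76 in controls. It was tested only through its finasteride arrays. It counts among the 8 lower by these measured levels, but its control signal was not well above background, and no fold is given.

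Of 45 genes of steroid synthesis and conversion, which set the ligands of these receptors, 9 were tested and none passed, with 4 higher, 5 lower and a median of -0.19. The 5-alpha-reductase genes srd5a1, srd5a2 and srd5a3 were listed but were not among the 9 tested. The lowest unadjusted p values were those of nr0b1, given above, and of fdx1, cyp21a2.1 and por. The electron carrier gene fdx1 stood at 0.39 (-0.25 to 1.02), the steroid 21-hydroxylase gene cyp21a2.1 at -0.37 (-1.02 to 0.27) and the electron donor gene por at -0.19 (-0.57 to 0.19), each with a limma adjusted p of 1.00. Leaving out 1 array moved fdx1 between 0.18 and 0.61.

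Of 50 genes known in mammals to respond to androgen, progestin or corticosteroid, pgr left out, 9 were tested and none passed over all probes. Values were higher for 4 and lower for 5, with a median of -0.01. The protease gene tmprss2.2, a copy of a gene that responds to androgen in the human prostate, was well above background on 3 finasteride arrays and on 0 control arrays. It was therefore tested only through its finasteride arrays, and it counts among the 4 higher by its measured levels. Its measured mean was -5.93 with finasteride and -7.33 in controls (limma adjusted p = 0.711). With the edwards background correction the difference was 0.14 on the log2 scale (95% interval -0.40 to 0.67, limma adjusted p = 1.00). The offset of 50 in that correction draws differences of dim probes towards 0, so this value cannot decide its size. The control signal was not well above background, so no fold is given. The growth factor gene igf1 was at -5.08 ± 0.26 with finasteride and -4.46 ± 0.47 in controls (SD, n = 4 each), which differ by -0.62 on the log2 scale (-1.18 to -0.07, adjusted p = 1.00). Its probe was dim, and with the edwards correction igf1 stood at -0.34 (-0.79 to 0.12). Within slide 1 igf1 stood at -0.81 (-1.50 to -0.13) and within slide 2 at -0.43 (-1.45 to 0.58). The clock gene per1 stood at 0.26 (-0.19 to 0.70) and the prostein gene slc45a3 at -0.16 (-0.61 to 0.30).

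**Figure D4:**
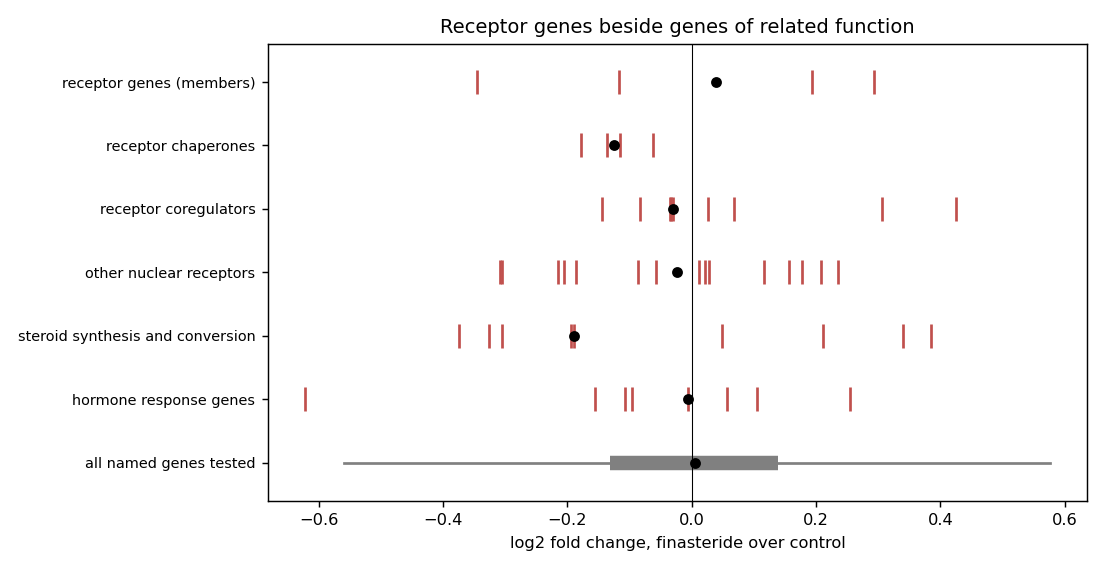
Log2 fold changes of finasteride over control for the 4 receptor genes and for the tested genes of 5 related lists (red ticks, 1 per gene; the black point is the median over all tested genes of the row). No tick is drawn for tmprss2.2 and ppara, whose control signal was not well above background. The bottom row shows all 3845 named genes tested, with the middle 50% as the thick bar and the middle 95% as the line (-0.56 to 0.58); all 4 receptor genes fall inside that line.

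Summed levels of the marker genes, on a linear scale relative to the 75th percentile, overlapped between the groups. The 5 Sertoli cell markers summed to 14.2 to 17.1 with finasteride and 14.0 to 15.6 in controls. The 5 Leydig cell markers summed to 2.74 to 3.12 with finasteride and 2.43 to 3.77 in controls, and the 6 germ cell markers to 21.3 to 27.7 and 19.9 to 28.3. Such sums follow the brightest genes. Of 35 single marker genes tested, 5 had groups that did not overlap, where 1.98% of named genes did so, and none passed (limma adjusted p = 1.00 for each); they are named for their values. On the log2 scale spata6 (germ cells) stood at 1.00 (-0.11 to 2.11) and krt18.2 (Sertoli cells) at 0.69 (0.23 to 1.16). The SD of spata6 was 1.22 over finasteride arrays and 0.03 over control arrays (n = 4 each). The other germ cell markers tested ran from -0.11 (akap14) to 0.29 (piwil1). The liver gene fgg stood at 0.58 (0.16 to 0.99) and the kidney gene slc12a3 at -0.74 (-1.35 to -0.13). The blood gene epb41 completes the 5, read from a probe named xhyb. That probe was well above background on 4 finasteride and 1 control arrays, so that it was tested only through its finasteride arrays. Its measured mean was -4.31 with finasteride and -5.57 in controls, and no fold is given. The part of cell makeup in the receptor values was not tested.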

How the data were processed

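Per the file headers, each array's intensity was deposited as output of Agilent Feature Extraction 10.7.1.1 on a grid naming the JGI 4.1 build; RNA was extracted with TRIzol, per the labels' protocols. The background correction behind the processed intensity was not stated there. The authors' deposited table holds log2 values whose steps are not stated. Each value lay within 0.00104 of a quantile normalization of the log2 processed intensity, taken over every spot, and the median of each array was 7.25.

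From these files, log2 processed intensity was averaged over the spots of a probe (at most 2), without control and outlier spots, and each array's 75th percentile was subtracted. A probe was tested if it was well above background on 3 or more of the 4 arrays in a group, which kept 25652 of 32899. The test was limma 3.58.1 (lmFit, then eBayes, in R 4.3.3) with group as its single term and a threshold of 0.05 on the Benjamini-Hochberg adjusted p. Intervals are 95% limma intervals. With so few arrays precision is limited, and the median interval reached 0.49 log2 units to either side. Only the limma fit, on values simulated with independent normal noise, and the permutation test, on a made-up example, were checked in this way. The steps before them were not.

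Without versions, 5891 probes matched RefSeq genes of assembly UCB_Xtro_10.0, whose build differs and which served for names only, and 1019 of these had provisional names. A gene was read from its tested probe of highest mean signal. The rule for named genes was all receptor probes, up to 4 genes of lowest p per list, the 2 brightest per marker list, and the 3 genes most like each receptor. Receptors, lists and tests were chosen with earlier results of these data known. List genes already counted as receptors were left out of the lists. Alternatives were other backgrounds, normalizations, filters, blocks, array weights and arrays left out.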

Additional observations from a re-analysis of the deposited data

Results flagged for a closer look

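Of 48 groups of 4 values tested for an array far from the others, 2 held such an array, where chance gives about 1 in 20 (2.4 here). Both were of the progesterone receptor gene pgr. On finasteride arrays, finasteride 2 stood at -0.10, with the others between -0.76 and -0.68. On control arrays, control 4 stood at -0.34, with the others between -0.48 and -0.47.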

How the results depend on the processing

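No receptor gene passed under any of the 22 alternatives run, with a lowest limma adjusted p of 0.844 (nr3c2 with array weights). Across them nr3c2 kept its direction, from 0.20 to 0.39, and its unadjusted limma p ran from 0.0334 to 0.500, against 0.0814 as reported. It was under 0.05 in 2 of 22, quantile normalization and the authors' table (0.0338). That table matches a quantile normalization, so the 2 are near repeats. The nr3c2 groups also lay apart with both, array medians and edwards, and overlapped with normexp. The log2 fold change turned for ar without finasteride 4 (-0.026) and for pgr with array weights (0.067), within slide 2 (0.0067) and with normexp (0.037). For pgrmc2 it was 0.49 with normexp. With 1 array left out it ran from -0.026 to 0.36 for ar, -0.27 to -0.05 for pgr, 0.20 to 0.34 for nr3c2 and -0.48 to -0.18 for pgrmc2.

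The normexp correction collapsed the range of some arrays. Turns of sign and overlaps under it are listed, but no direction is read from them. The middle 50% of probes spanned 0.23 on finasteride 4, 1.03 on finasteride 3, 2.24 on finasteride 1 and 0.11 on control 4, and 3.24 to 3.97 on the other arrays, against 5.08 to 5.67 on all arrays without it. With normexp the median log2 fold change over all probes tested was 0.23, against 0.01 in the fit as reported. The edwards background, chosen after seeing the data, spanned 3.20 to 3.89 and gave 0.22 for ar, -0.11 for pgr, 0.22 for nr3c2 and -0.22 for pgrmc2. Both corrections were run with an offset of 50 added to each intensity.

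Counts of probes at the threshold were 0 higher and 0 lower, and 1025 had an unadjusted limma p under 0.05. Exceptions were 1 higher with edwards, 1 higher within slide 2, and 0 to 2 higher and 0 to 6 lower with 1 array left out; the cause was not tested. Of the 15 probes called in those fits 0 were receptor probes. With the replicate number as a block (replicate block), 0 probes passed and nr3c2 stood at 0.29 (adjusted p = 0.998). After group means were removed, correlations between the finasteride and control arrays of numbers 1 to 4 were 0.30, 0.36, -0.06 and -0.03. Only 1 and 2 were closest to their own number. The finasteride and control arrays of each number lay on different slides, so these correlations cannot decide whether the numbers pair arrays. The labels state no pairing, and none was assumed.

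Signs of list genes turned as follows. With normexp, igf1 stood at 0.66, slc45a3 at 0.65, ppard at 0.091, thra at 0.22, bag1 at 0.068, ahsa1 at 0.017, pias1 at 0.80 and cyp21a2.1 at 0.72, and with edwards ahsa1 stood at 0.034. The measured difference of ppara, for which no fold is given, was 0.86 with normexp and 0.15 within slide 2. The dim probes of tmprss2.2, med14 and ncoa6 kept their sign with edwards but stood at 0.14, 0.016 and 0.026. With array weights kat2b stood at 0.10 and pias1 at 0.075. Within slide 1 hsp90b1 stood at 0.21 and ahsa1 at 0.032, and within slide 2 vdr stood at 0.19. With 1 array left out, hspa8 ran from -0.21 to 0.011, hsp90b1 from -0.33 to 0.023, pias1 from -0.17 to 0.084 and vdr from -0.13 to 0.049. Each receptor has 1 probe, so the mean over probes of a gene was not run.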
